A study of Mus musculus with 1 sample.

Results

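Glucocorticoid receptor signalling was described in cultured midbrain glia through 10 genes: the corticosteroid receptors Nr3c1 and Nr3c2, the activating enzyme Hsd11b1, the cochaperones Fkbp4, Fkbp5 and Ptges3, and the classic targets Tsc22d3, Per1, Dusp1 and Zbtb16. They were chosen by gene symbol for these roles, and all 10 had a row among the 23282 rows of the expression table. The cells were mixed glia cultured from the ventral midbrain (VM) of ICR(CD-1) outbred mice, labelled postnatal day 5, and serum was in the culture medium. The study asked what inhibition of the serum- and glucocorticoid-regulated kinase SGK1 does to such glia, and the 1 library analysed here was the control, which received the DMSO vehicle in place of the inhibitor. The sources used here name no added corticosteroid and do not say whether the control also met the toxins used in the study. With a single library and no replicate, the spread between cultures is unknown and no difference was tested.

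Glucocorticoids (corticosterone in mice) enter cells and bind a receptor that waits in the cytoplasm in a complex with the chaperone HSP90 and its cochaperones. The bound receptor moves to the nucleus, binds DNA at response elements and raises or lowers the transcription of target genes. Enzymes inside the cell make or destroy the active hormone, and some targets, such as Fkbp5, dampen the receptor in turn. In the brain, glia are known to carry the glucocorticoid receptor, and its ligands are known for restraining inflammatory genes in microglia and astrocytes.

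Sequence upstream of the start sites was examined first, because the receptor acts by binding DNA, at sites near or far from its targets. RefSeq promoter windows of GRCm38.p6, each with 250 bases before and 50 after an annotated start, were matched for 8 of the 10 genes (11 windows). Nr3c1 and Zbtb16 were not matched. The stretches below are those holding the match of most interest in Tsc22d3, Per1, Fkbp5 and Dusp1, written 5′ to 3′ on the gene's strand without bases of annotated exons. Capitals mark every match to the motifs searched, which were the palindromic response element (the arm AGAACA, 3 bases of any kind, and the arm TGTTCT), a single arm of it (AGAACA), the E-box CACGTG, the cAMP response element TGACGTCA, TATAAA and the NF-Y box CCAAT, on both strands. The arm is part of the response element, and no other matches overlapped.
Tsc22d3 (chrX:140600660-140600772, minus strand): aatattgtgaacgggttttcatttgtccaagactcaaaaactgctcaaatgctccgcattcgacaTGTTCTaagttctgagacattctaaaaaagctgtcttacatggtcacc
Per1 (chr11:69098699-69098947, plus strand): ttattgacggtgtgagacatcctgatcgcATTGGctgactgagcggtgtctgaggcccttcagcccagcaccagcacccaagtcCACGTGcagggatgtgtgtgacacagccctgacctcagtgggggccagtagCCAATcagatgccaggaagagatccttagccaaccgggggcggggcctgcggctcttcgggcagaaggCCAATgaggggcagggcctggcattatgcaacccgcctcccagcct
Fkbp5 (chr17:28486150-28486399, minus strand): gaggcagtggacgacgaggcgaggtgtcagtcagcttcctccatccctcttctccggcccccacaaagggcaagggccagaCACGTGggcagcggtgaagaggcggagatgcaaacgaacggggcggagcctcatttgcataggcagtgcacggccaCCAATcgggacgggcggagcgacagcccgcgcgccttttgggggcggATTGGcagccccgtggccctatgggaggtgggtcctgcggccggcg
Dusp1 (chr17:26508520-26508722, minus strand): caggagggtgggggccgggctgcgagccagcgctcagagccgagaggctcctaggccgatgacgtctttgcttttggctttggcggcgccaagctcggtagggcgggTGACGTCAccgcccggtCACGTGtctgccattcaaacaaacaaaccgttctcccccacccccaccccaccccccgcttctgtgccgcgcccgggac

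None of the 11 windows held the full response element, with up to 2 of its bases allowed to differ. An exact full element was in 0.00913% of all 32851 promoter windows, and 1.84% held one with up to 2 mismatches. The closest stretch among these genes was in the Dusp1 window, with 3 mismatches. A single arm was matched in 1 window, that of the most upstream Tsc22d3 start, where it reads TGTTCT on the gene's strand. Its first base lay 185 bases upstream. Over all windows 18.97% held an arm. The absence of the letters in a window says nothing of elements farther away.

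The E-box, the site that clock factors and other bHLH proteins recognise, was matched in 3 windows, one each of Per1, Dusp1 and Fkbp5. It lay 166, 126 and 169 bases upstream of the start, respectively, and 7.15% of all windows held it. The cAMP response element was matched once, 143 bases upstream of Dusp1, against 1.79% of all windows. An NF-Y box was matched in 6 windows of 5 genes (37.4% of all windows), and TATAAA in none (13.6% of all windows). These matches are descriptions of letters, and no binding was measured.

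**Figure D1:**
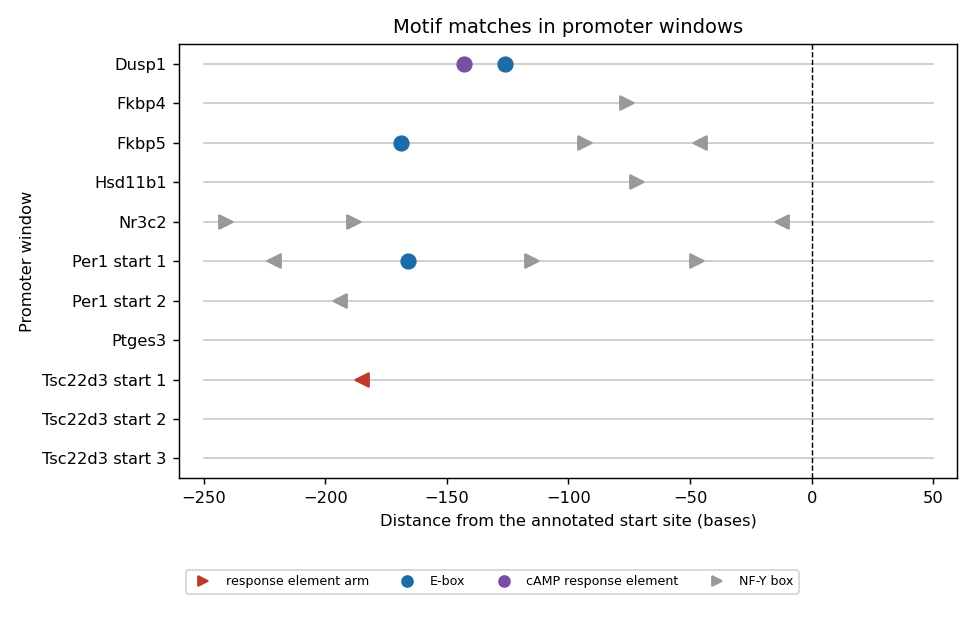
Motif matches in the 11 promoter windows of 8 genes, by distance of the first matched base from the annotated start site (bases, x axis) for each window (y axis; starts of a gene are numbered from its 5′ end). Circles are palindromic motifs and arrowheads give the strand of the others; E-boxes lie 126 to 169 bases upstream of Dusp1, Fkbp5 and the first Per1 start, and the response element arm lies upstream of the first Tsc22d3 start.

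The deposited values were normalised read counts per gene. Their scaling was not given in the sources used here, and they were taken to be on the scale of reads. Levels of different genes were compared per kilobase of annotated exon, the union of all exons of a gene in GENCODE M21, and a gene was called detected at a deposited value of 10 or more. All 10 genes were detected, against 67.2% of all rows. Their values added up to 14119, or 0.0512% of the sum of the table. Across detected genes the median was 102 per kilobase, and the middle of the distribution ran from 28.7 (25th percentile) to 318 (75th percentile). Of the 10 genes, 7 were above that median and 3 were below it. Since no spread between cultures could be measured, the order of neighbouring genes is that of this library only.

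The 3 cochaperones led the group, followed by the targets Dusp1, Tsc22d3 and Per1 and by the receptor Nr3c1. Zbtb16, Hsd11b1 and Nr3c2 were lowest. This order depended little on the length that was used: with the longest transcript or with the exons of RefSeq-paired transcripts as the length, 8 of the 10 genes kept their place, and Zbtb16 and Hsd11b1 exchanged theirs. The cochaperones held 82.4% of the group's summed levels per kilobase, the targets 14.0%, the receptors 2.87% and Hsd11b1 0.713%.

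**Figure D2:**
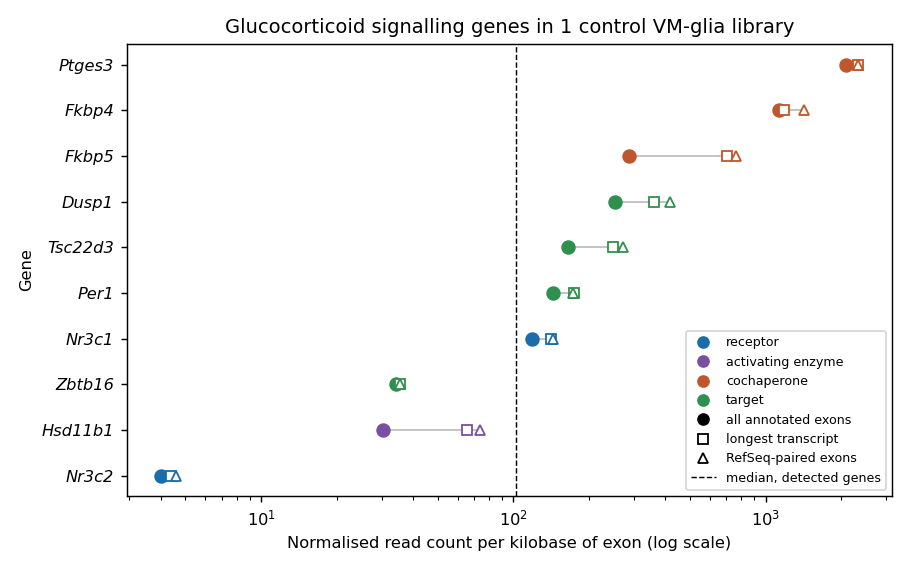
Level of each gene in the control library, as normalised read count per kilobase (log scale, x axis), by gene (y axis) and coloured by role. Filled circles use all annotated exons, squares the longest transcript and triangles RefSeq-paired exons; Ptges3 and Fkbp4 are highest, Nr3c2 is lowest under each of the 3 lengths, and Fkbp5 and Hsd11b1 move most with the length.

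The culture carried one corticosteroid receptor transcript at an ordinary level and the other near the detection minimum. Nr3c1, which encodes the glucocorticoid receptor (chromosome 18), had a deposited value of 908 and a level of 118 per kilobase, above 53.3% of detected genes. Nr3c2, which encodes the mineralocorticoid receptor and binds corticosterone with higher affinity (chromosome 8, 76899442 to 77245012, plus strand), had a deposited value of 26. Its level of 4.02 per kilobase was above 3.80% of detected genes. Per kilobase, Nr3c1 was 29.4 times Nr3c2, and the ratio was between 29.4 and 34.9 for the 3 lengths and for the deposited values alike. Exons of Nr3c2 share 247 bases with the opposite-strand transcript Gm10649, which was listed at 0.

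Other steroid receptor genes were low too. Esr1, which encodes estrogen receptor alpha, had a deposited value of 14 and a level of 1.02 per kilobase. Esr2 and Pgr (progesterone receptor) were under the minimum of 10, with deposited values of 5 and 6.

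Transcripts of both enzymes that interconvert active and inert glucocorticoid were below the median of detected genes. Hsd11b1 (chromosome 1, 193221634 to 193264075, minus strand), whose product regenerates corticosterone from its inert form, had a deposited value of 129 and a level of 30.3 per kilobase, above 25.8% of detected genes. Hsd11b2, which encodes the inactivating enzyme, had a deposited value of 30 and a level of 16.3 per kilobase. The Hsd11b1 level was 1.86 times the Hsd11b2 level on all annotated exons and 4.52 times on RefSeq-paired exons. Hsd11b1 has 4.25 kilobases of annotated exon, of which 1.75 are in RefSeq-paired transcripts, and its level on the latter was 73.7 per kilobase.

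H6pd, which supplies the cofactor for the Hsd11b1 enzyme in the endoplasmic reticulum, was the highest of the 7 genes for hormone metabolism and transport at 232 per kilobase. It was also the only one of the 7 above the median of detected genes. Srd5a1, a steroid reductase gene, was at 24.8 per kilobase. The efflux pump genes Abcb1b and Abcb1a, whose products export steroids, were at 57.7 and 19.2 per kilobase. Serpina6, which encodes the plasma carrier of corticosterone and is made mainly by liver, was listed at 0. The median of this list was 24.8 per kilobase, and 6 of the 7 genes were detected (85.7%, against 67.2% of all rows).

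The chaperone side of the pathway lay above the median of detected genes throughout. Ptges3 (chromosome 10, 128058954 to 128077272, plus strand) encodes p23, which stabilises HSP90 in its client-bound state. Its deposited value was 4638 and its level 2092 per kilobase, above 95.7% of detected genes. Fkbp4 (chromosome 6, 128429735 to 128438677, minus strand) encodes a cochaperone that favours hormone binding and transport of the receptor. It had a deposited value of 3163 and a level of 1132 per kilobase, above 91.8% of detected genes. Fkbp5 (chromosome 17, 28399094 to 28517527, minus strand) encodes the competing cochaperone that lowers the receptor's affinity for hormone, and it is itself a target of the receptor. Its deposited value was 2714 and its level 287 per kilobase, above 73.0% of detected genes.

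Ptges3 exceeded Fkbp4 by 1.85-fold per kilobase, and between 1.47-fold and 1.96-fold under the other settings. Fkbp4 exceeded Fkbp5 by 3.95-fold, but this ratio rested on the length. The union of annotated Fkbp5 exons, from 15 transcripts, is 9.47 kilobases, while its RefSeq-paired exons cover 3.54. With the latter the Fkbp5 level was 766 per kilobase and the ratio 1.86, and without division by length it was 1.17. For Ptges3, 2 processed pseudogenes have transcripts at least 90% identical over 300 bases or more: Ptges3-ps (100% over 480 bases) and Gm11893 (94.3% over 495 bases). No row carried either symbol, and how reads that fit several places were treated was not stated. None of the other 9 genes had such a relative.

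All 18 chaperone and cochaperone genes were above the median of detected genes, with a list median of 1104 per kilobase. Hspa8, the constitutive HSP70, was highest at 27524 per kilobase. The HSP90 genes Hsp90ab1 and Hsp90aa1 were at 18408 and 7546. Bag1, an HSP70 cochaperone gene, was at 8797 and Hspa4, a nucleotide exchange factor gene, at 2553. Among the 18, Ptges3 was the 7th highest, Fkbp4 the 9th and Fkbp5 the lowest, and on RefSeq-paired exons Ptges3 was the 6th, Fkbp4 the 11th and Fkbp5 the 17th.

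Within the FKBP family of 15 genes, each of which was detected (against 67.2% of all rows), Fkbp4 ranked 2nd per kilobase and Fkbp5 10th. With the longest transcript as the length they ranked 4th and 9th, and on RefSeq-paired exons 5th and 10th. Fkbp8, whose product sits at the mitochondrial outer membrane, was highest at 1313 per kilobase on all annotated exons. On RefSeq-paired exons Fkbp3 was highest at 3554 per kilobase, against 463 on all annotated exons, and Fkbp8 came next at 3109. On all annotated exons Fkbp8 and Fkbp4 were followed by Fkbp2 at 1001, Fkbp1a at 987 and Fkbp10 at 916, and Fkbp11 was lowest at 78.0. The family median was 485 per kilobase, and 13 of the 15 were above the median of detected genes.

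**Figure D3:**
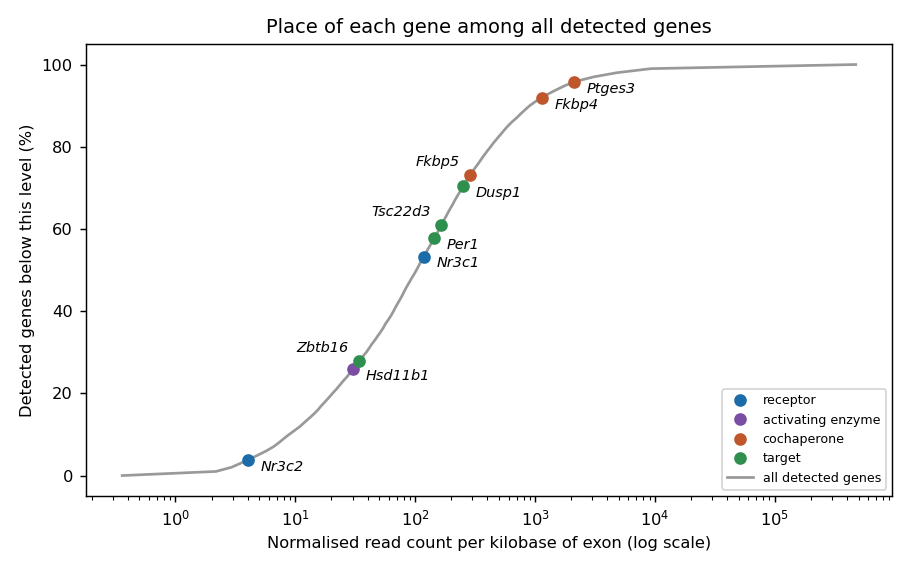
Percent of detected genes below a given level (y axis) against normalised read count per kilobase (log scale, x axis), for the control library. The line is all detected genes and the points are the 10 genes, which run from Nr3c2, above 3.80% of detected genes, to Ptges3, above 95.7%.

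Of the 4 classic targets, 3 were somewhat above the median of detected genes and 1 was well below it. Dusp1 (chromosome 17, 26505590 to 26562128, minus strand), a phosphatase that switches off MAP kinases and carries part of the anti-inflammatory action of glucocorticoids, had a deposited value of 834. Its level was 252 per kilobase, above 70.5% of detected genes. Tsc22d3 (chromosome X, 140539528 to 140600659, minus strand), which encodes the leucine zipper protein GILZ, had a deposited value of 716 and a level of 165 per kilobase, above 60.9%. Both are known to respond to hormone within hours and to restrain inflammatory signalling.

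Per1 (chromosome 11, 69095217 to 69109960, plus strand), a negative regulator of the circadian clock that glucocorticoids also induce, had a deposited value of 810. Its level was 144 per kilobase, above 57.7% of detected genes. Zbtb16 (chromosome 9, 48654297 to 48836222, minus strand) encodes the transcriptional repressor PLZF and is strongly hormone-dependent in many cell types. Its deposited value was 181, and its level of 34.3 per kilobase was above 27.9% of detected genes. Exons of Dusp1 share 11 bases with Ergic1 on the opposite strand, which had a deposited value of 2189, and no other target shared exon bases with an annotated gene.

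A wider list of 32 induced targets placed most of these genes in the middle. Of the 32, 31 were detected (96.9%, against 67.2% of all rows). The median of detected genes was exceeded by 20 of the 32, and the list median was 176 per kilobase. The metallothionein genes Mt1 and Mt2, which metals induce as well, were highest at 26270 and 20233 per kilobase. Anxa1, which encodes annexin A1, was at 4057, Glul, the glutamine synthetase of astrocytes, at 2020, and Cebpb, a transcription factor gene, at 1672.

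Sgk1, the kinase gene of the study and a hormone target itself, came next in 6th place at 1245 per kilobase. Fkbp5 was 12th of the 32, Dusp1 13th, Tsc22d3 17th, Per1 19th and Zbtb16 26th. On RefSeq-paired exons their places were 9th, 13th, 16th, 20th and 26th. The lowest detected target was Hif3a at 1.49 per kilobase, and Tat, a liver enzyme gene, had a deposited value of 8 and was under the minimum. Many of these genes also respond to other stimuli, and their levels in 1 control library do not measure hormone action.

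**Figure D4:**
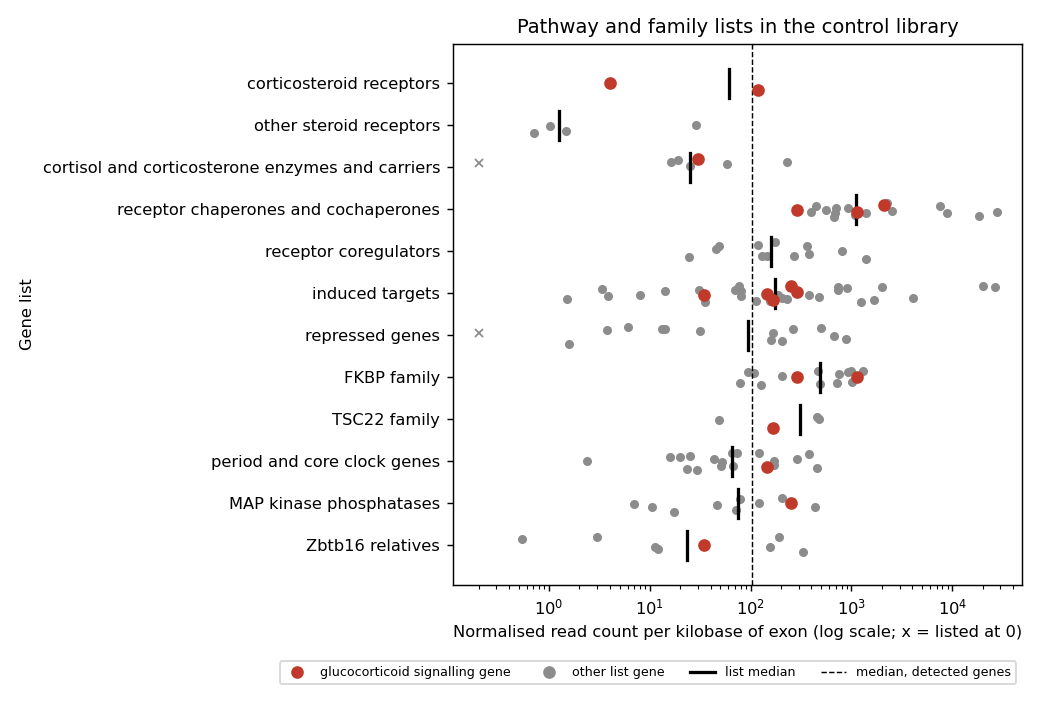
Normalised read count per kilobase of exon (log scale, x axis) of each gene in 12 pathway and family lists (y axis) in the control library. Red points are the 10 glucocorticoid signalling genes, grey points other list genes, crosses genes listed at 0, short black bars list medians and the dashed line the median of detected genes; all 18 chaperone genes lie to its right.

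The families of the targets differed in level. The median of the 4 TSC22 genes was 310 per kilobase. Among the 4 TSC22 genes Tsc22d3 was 3rd, below Tsc22d1 at 476 and Tsc22d4 at 455 per kilobase and above Tsc22d2 at 48.9. Among 10 MAP kinase phosphatases Dusp1 was 2nd to Dusp6, the ERK-directed phosphatase, which was at 434 per kilobase. Dusp7 was at 206, Dusp5 at 120, Dusp4 at 78.5, Dusp10 at 72.3 and Dusp16 at 46.7. Dusp2, Dusp8 and Dusp9 were at 17.5, 10.5 and 6.98 per kilobase. The list median was 75.4, and 4 of the 10 exceeded the median of detected genes.

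Per1 was the highest of the 3 period genes, with Per2 at 50.5 and Per3 at 19.98 per kilobase. Over 19 period and core clock genes, which were all detected (against 67.2% of all rows), it ranked 6th, or 7th on RefSeq-paired exons. The clock output gene Dbp was highest at 458, followed by Bhlhe41 at 382, Bhlhe40 at 289, Cry1 at 172 and Nr1d1 at 169, and Hlf was lowest at 2.39. The list median was 64.5 per kilobase, and 7 of the 19 were above the median of detected genes. The time of harvest is not given in the sources used here.

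Zbtb16 was 4th of 8 related zinc finger genes. Zbtb7a was at 334, Zbtb7b at 191 and Bcl6, itself an induced target, at 154 per kilobase. Zbtb7c was at 12.05 and Zbtb20 at 11.2. Zbtb32 and Bcl6b were under the minimum with deposited values of 7 and 2. The list median was 23.2 per kilobase.

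Coregulators that the receptor recruits were present without exception. All 12 were detected, against 67.2% of all rows. Of the 12, 9 exceeded the median of detected genes, with a list median of 158 per kilobase. The chromatin remodelling ATPase gene Smarca4 was highest at 1392, and among the next were the corepressor gene Ncor1 at 377, the coactivator gene Ncoa3 at 363 and the methyltransferase gene Carm1 at 269. Nrip1, a corepressor gene, was lowest at 24.4 per kilobase.

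Genes that glucocorticoids are known to repress were spread widely. Of 14, 10 were detected (71.4%, against 67.2% of all rows). The median of detected genes was exceeded by 7 of the 14, and the list median was 94.9 per kilobase. Icam1, an adhesion molecule gene, was highest at 887, followed by the chemokine gene Ccl2 at 671, Tnf at 494, Il1b at 261 and Vcam1 at 204. Mmp13 was the lowest detected gene at 13.1 per kilobase. Csf2 was listed at 0, and Nos2, Crh and Pomc had deposited values of 7, 5 and 8. The hormone genes Crh and Pomc act in the hypothalamus and the pituitary.

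Several cell types shared this RNA, so a level here cannot be assigned to one of them, and fewer cells of a type cannot be told apart from less RNA per cell. All 8 astrocyte markers were detected, between 142 and 4083 per kilobase (median 484). So were all 8 microglia markers (425 to 31364, median 3549) and all 8 mesenchymal markers (186 to 12067, median 743). All 8 oligodendrocyte lineage markers were detected too (15.7 to 2945, median 211), and 5 of these 8 exceeded the median of detected genes. Of 8 neuronal markers 6 were detected (75%, against 67.2% of all rows). The 8 ran from Slc17a6 listed at 0 to Stmn2 at 679 per kilobase, with a median of 8.05. Stmn2 was the only one above the median of detected genes. Of 6 endothelial markers 4 were detected (66.7%, against 67.2% of all rows). The 6 ran from Tek listed at 0 to Flt1 at 180 per kilobase, with a median of 7.76. Flt1 alone was above the median of detected genes. The part of each cell type in the levels of the 10 genes was not tested.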

How the data were processed

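RNA from cultured mouse VM-glia was sequenced after a SMARTer mRNA library preparation, and 1 control library was analysed here. According to the study's methods, reads were trimmed at a quality of 20, mapped to GRCm38/mm10 with STAR and counted on exons of NCBI RefSeq Release 105 genes with HTSeq-count. The submitters' processing notes name TopHat and edgeR in place of these. The values deposited by the authors were whole-number normalised read counts, handled as a score because the scaling, strand setting and treatment of multi-mapped reads were not given in the sources used here. Their sum was 27569507. The number of reads behind them is unknown, so no interval or floor is given, and an unknown scaling would change values per kilobase.

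Gene symbols were matched to GENCODE M21 (GRCm38), directly or through RefSeq synonyms, for 22804 rows (97.9%). GENCODE is not the annotation that was counted on, so lengths of RefSeq-paired transcripts were tried as well. Percentages of detected genes refer to the 15437 detected rows with a length. No group comparison and no replicate was possible with 1 library. The 10 genes and all lists were chosen with earlier results of these data known. The text names each of the 10, each gene of lists of up to 10, and in longer lists the 5 highest, the lowest detected and those at 0; Fkbp3, Stmn2, Flt1, Sgk1, Per2, Per3, Tat, Nos2, Crh and Pomc were named after their values were seen. A few genes picked by it are not reported here. Similar transcripts were sought with BLAST 2.17.0. Percentile, exon union and motif functions were tested on simulated data. Python 3.11.15, numpy 2.4.6, pandas 2.3.3 and matplotlib 3.10.9 were used.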

Additional observations from a re-analysis of the deposited data

How the results depend on the processing

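Alternatives were other lengths, detection minima, gene pools and mismatch limits; lengths from RefSeq-paired exons were added after seeing the data. All 10 genes were detected at minima of 1 and 3, and 9 at 100. For comparison, 5075 of all 23282 rows were listed at 0, and the median deposited value over all rows was 119. The shares of all rows at minima of 3 and 100 were not computed. Ranked among rows at 100 or more, 4 genes in place of 7 exceeded the median of the pool, which follows from a pool without low genes. The number was 7 with deposited values, protein-coding genes or the longest transcript, and 6 with RefSeq-paired exons, where Nr3c1 was above 47.9% of genes. The ratio of Fkbp4 to Fkbp5 was 1.17 with deposited values, 1.68 with the longest transcript and 1.86 with RefSeq-paired exons. In the same order, that of Ptges3 to Fkbp4 was 1.47, 1.96 and 1.63, and that of Hsd11b1 to Hsd11b2 was 4.30, 4 and 4.52. These shifts follow from the lengths used. Of the 12 lists, 5 had a median above that of detected genes, and 6 did with deposited values or with detected genes alone. Leaving Rn45s out of the sum raised each gene's share of it by 2.44%. No paired analysis was possible because there was 1 library, and the lack of a replicate limits every value here.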

Other observations

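Among rows with deposited values from 2 to 19, 1684 were even and 1260 were odd. The range starts at an even value, so each even value is set beside the next higher odd one. How much of the difference comes from this choice of range was not tested.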
